A study of Mus musculus with 21 samples.

Results

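The endothelial cells of the tumor microenvironment (TME) were compared between melanoma lung metastases and primary tumors. A cell was taken as endothelial when it held a unique molecular identifier (UMI, 1 counted RNA molecule) of at least 3 of Pecam1, Cdh5, Cldn5, Kdr, Emcn and Egfl7, no UMI of the leukocyte gene Ptprc, the fibroblast gene Col1a2 or the epithelial gene Epcam, and under 0.5% of its UMIs from Pmel, Dct, Mlana and Tyrp1, which mark melanoma cells. This rule gave 938 cells, 654 of 7648 in 4 lung metastasis libraries and 284 of 6477 in 4 primary tumor libraries, in a series of 110283 deposited cells, repeated libraries included. A further 4196 cells of 4 unchallenged lung libraries, chosen by the same rule, served as a reference for the organ. All hosts were mT/mG mice, which carry the fluorescent protein tdTomato in the membrane of every cell, so that host cells glow red and grafted melanoma cells do not. The lung metastasis and primary tumor groups came from hosts that were grafted under the skin with fragments of MT-ret melanoma. The primary tumors were removed by surgery and the metastases grew in the lungs afterwards. The unchallenged lungs came from mice without a tumor. The deposited sample sheet names lung as the tissue of every sample, the primary tumors included, while the library names give skin for the primary tumors. Tumor site and organ therefore changed together, and they cannot be told apart in this comparison. Living tdTomato+ cells were sorted, in part with CD45+ cells depleted, and which libraries had the depletion was not given in the sources used here. Hosts of both sexes were grafted at 8 to 10 weeks of age, as the study's methods give it.

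Blood vessels of each organ are lined by endothelial cells with an identity of their own. In the lung, general capillary cells and the large, flat aerocytes form the alveolar capillary net. They depend on transcription factors such as Foxf1, and carbonic anhydrase 4 (Car4) and endothelin receptor B (Ednrb) are hallmarks of aerocytes. Postcapillary venules of skin and other organs carry Ackr1 and P-selectin (Selp), through which leukocytes leave the blood. Vessels in growing tumors add tip cells (Esm1, Angpt2, Apln) and a thick matrix of type IV collagen and Sparc.

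Levels are CPM, the UMIs of a gene divided by all endothelial UMIs of a library and scaled to a sum of 1e+06. Values of 4 libraries are given in the order of replicates 1-3, 4, 5 and 6 for both tumor groups, and 1, 4, 5 and 6 for unchallenged lung. A replicate marked 1-3 pooled several mice. The library taken as unchallenged lung replicate 1 carries replicate 2 in its library name. It was matched because no other unchallenged lung library was left for that label. Summed endothelial UMIs ranged from 161485 to 1266860 in lung metastasis and from 219642 to 593949 in primary tumor. The median was 1708 to 4883 UMIs per endothelial cell in lung metastasis and 4932 to 7339 in primary tumor, and the median mitochondrial share was 1.82% to 5.66% and 4.71% to 9.67%. Of 24 library names, 5 held the same cells as another name and were counted once. The lung metastasis replicate 6 library was also deposited under a name for melanoma cells of a metastasis, so each main count is also given without it. Distinct libraries shared at most 48 barcodes. The melanoma limit removed 526 cells from lung metastasis replicate 5 and at most 12 from any other tumor library. The library names also give a run number, 1 for replicates 1-3, 2 for replicates 4 and 3 for replicates 5 and 6, but do not say what a run was. They give the mice as well. Replicates 5 and 6 came from the same 2 mice in both groups, the pooled replicates 1-3 shared 2 mice, and replicates 4 came from different mice.

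The endothelial label was checked with genes that the rule did not use. All 20 genes of an independent list of endothelial identity genes, among them Tie1, Tek, Eng, Ramp2 and Esam, passed the filter on low counts. The list summed to 11543 to 20210 CPM in lung metastasis endothelium, against a mean of 820 CPM in the other cells of those libraries. In primary tumor it summed to 8236 to 10180 CPM, against 1121 CPM in the other cells. Every primary tumor sum was thus below every lung metastasis sum. Of the 20 genes, edgeR called 5 higher in lung metastasis (Ramp2, Sox17, Cd93, Clec14a and Icam2), beside 4.15% of all genes tested, and Mmrn2 lower, beside 2.98%. DESeq2 called 6 higher and 1 lower, and the list's median log2 fold change (edgeR, as for all lists) was 0.11. Of 9 tested genes that chose the cells, Cldn5 was higher in lung metastasis at 1338, 2600.1, 1405 and 1109 CPM against 592, 311, 663 and 404 CPM, and Emcn was lower at 204, 108, 470.5 and 336 CPM against 555, 949.6, 955 and 748 CPM. These values touch the rule itself and are descriptions only. Just inside the rule lay 88 lung metastasis and 36 primary tumor cells with exactly 3 markers, and just outside it 49 and 39 cells with exactly 2.

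Primary tumor replicate 1-3 stood apart before any test. It held Hpgd, which breaks down prostaglandins and is abundant in lung capillaries, at 509.9 CPM, against 1.68, 4.52 and 0 CPM in replicates 4, 5 and 6. Car4 read 232, 0, 2.26 and 0 CPM, and Tmem100 437, 37, 33.9 and 37.3 CPM. With each cell thinned to 1000 UMIs, 8 of 42 cells of that library had a UMI of at least 2 of 6 lung-type genes (Hpgd, Tmem100, Foxf1, Glp1r, Krt80 and Ace) and of fewer than 2 of 6 primary-tumor-type genes (Igfbp3, Meox2, Ackr1, Fbln2, Selp and Fbln5). In primary tumor replicates 4, 5 and 6 such cells numbered 0 of 85, 0 of 75 and 1 of 80. These gene sets were chosen after their values were seen, so the counts carry no test. They describe a small group of cells with lung capillary genes in 1 library labelled primary tumor. Without that library, 68 of 78 named genes called against primary tumor were still called. The other 10, Bmpr2, Ifi35, Mcc, Nos3, Nrarp, Plvap, Procr, Ptgds, Sox17 and Stab1, then had edgeR adjusted p of 0.0508 to 0.11, with the same direction.

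The main comparison asked which genes differed between the endothelium of lung metastases and that of primary tumors, over 4 libraries each. Of 6840 genes tested, 488 passed an edgeR adjusted p of 0.05, which is 7.13% of those tested. In lung metastasis 284 genes (4.15%) were higher and 204 (2.98%) were lower. The libraries of the 2 tissues did not overlap for 436 of the 488 genes, and for 858 of all 6840 (12.5%). At an unadjusted p under 0.05 there were 1310 genes, and DESeq2 called 305 higher and 241 lower. Without lung metastasis replicate 5 the count rose to 1061, and without primary tumor replicate 4, 5 or 6 it fell to 252, 252 and 287. Without primary tumor replicate 1-3 it was 485, and without lung metastasis replicate 6 it was 523. With the replicate number as a block it was 610 of the same 6840 genes, 335 higher and 275 lower. None of the 488 genes changed direction in any alternative in which it was tested. In sums over cells, fewer cells of a type and less RNA per cell cannot be told apart.

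**Figure D1:**
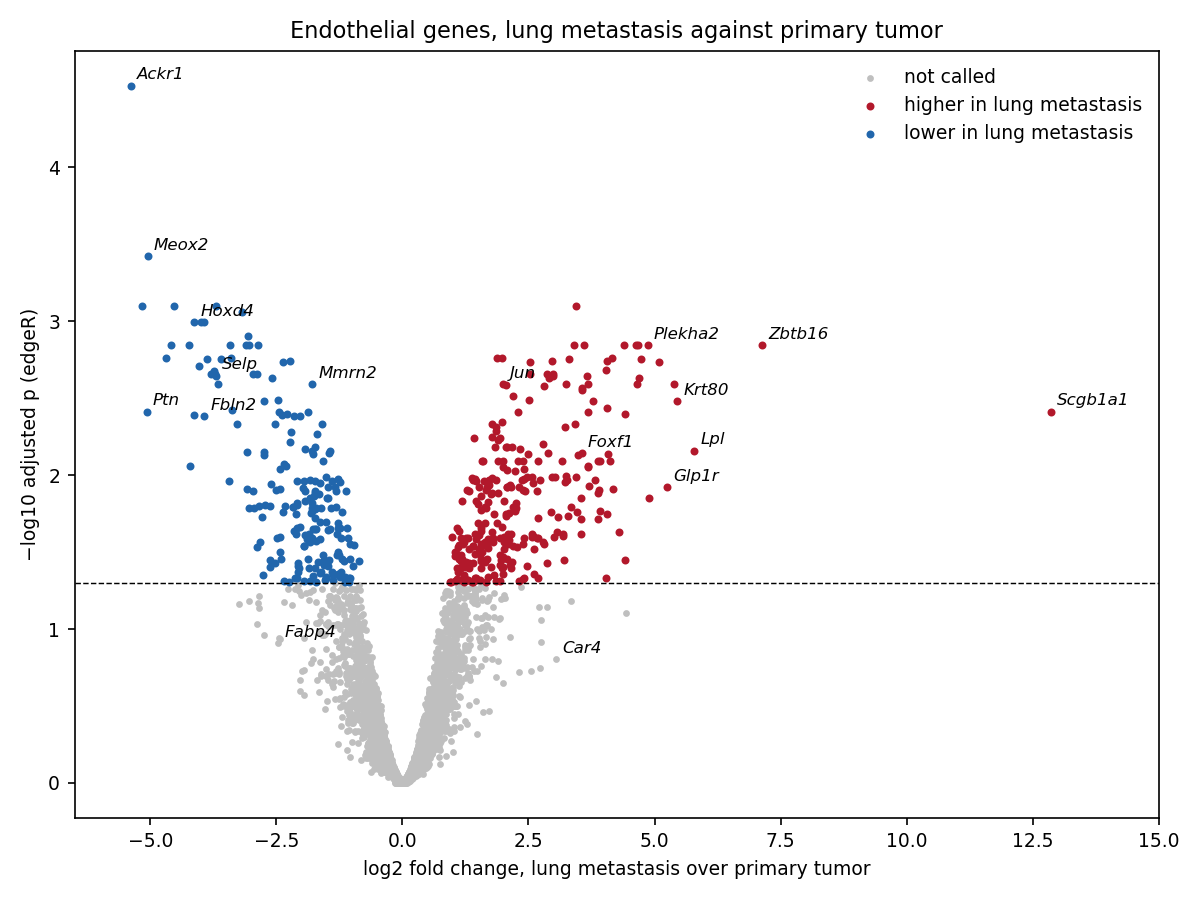
Each point is 1 of 6840 genes tested in endothelial cells, with the log2 fold change of lung metastasis over primary tumor on the x axis and −log10 of the edgeR adjusted p on the y axis; the dashed line marks an adjusted p of 0.05. The 284 red genes were higher in lung metastasis and the 204 blue genes lower, with Ackr1 and Meox2 at the smallest adjusted p on the lower side and Scgb1a1, a club cell gene, farthest to the right.

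Among genes with at least 50 CPM and no overlap between tissues, the 10 with the largest rise in lung metastasis were Scgb1a1, Zbtb16, Lpl, Krt80, Glp1r, Nkd1, Adgrl3, Plekha2, Arap2 and Cadm1. Lpl, lipoprotein lipase, which frees fatty acids from lipoproteins on the capillary wall, read 347, 1934, 86 and 219 CPM in lung metastasis and 31.9, 10.1, 11.3 and 0 CPM in primary tumor (log2 fold change 5.79 ± 1.06 (SE), edgeR adjusted p 0.00694). Every lung metastasis library lay above every primary tumor library, although lung metastasis replicate 4 was far above its group. Glp1r, the receptor for glucagon-like peptide 1, read 699.8, 470.1, 88.4 and 239 CPM against 59.2, 0, 0 and 0 CPM (log2 fold change 5.24 ± 1.08 (SE), edgeR adjusted p 0.0119). The only primary tumor library with any Glp1r was replicate 1-3, the library with lung-type cells.

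Zbtb16, a zinc finger transcription factor, was at 186, 215, 38.7 and 65.7 CPM in lung metastasis and at 4.55, 0, 0 and 0 CPM in primary tumor (log2 fold change 7.14 ± 0.94 (SE), edgeR adjusted p 0.00143). Nkd1, an inhibitor of Wnt signaling, was at 186, 315, 129 and 102 CPM against 27.3, 0, 2.26 and 2.07 CPM (log2 fold change 5.08 ± 0.73 (SE), edgeR adjusted p 0.00184). In unchallenged lung the same gene read 326, 307, 208 and 149 CPM, so that lung metastasis fell within or below the range of normal lung. Krt80, a keratin, and Cadm1, a cell adhesion molecule, had log2 fold changes of 5.45 and 4.70. Adgrl3 (a latrophilin receptor), Plekha2 (a phosphoinositide-binding protein) and Arap2 (a GTPase-activating protein) had log2 fold changes of 4.90, 4.86 and 4.73.

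Scgb1a1, the main secretory protein of airway club cells, is made by cells other than endothelium. It read 254, 157, 3314 and 3305 CPM in lung metastasis endothelium and 0 UMIs in all 4 primary tumor libraries. The other cells of the lung metastasis libraries held it at a mean of 4175 CPM, and it read 17.2 to 4913 CPM in endothelial cells of unchallenged lung. The whole list of 10 airway epithelial genes summed to 213 to 4273 CPM in lung metastasis endothelium and to 26.9 to 95.6 CPM in primary tumor endothelium, where 7 of the 10 were at 0. The part of free airway RNA in the value of Scgb1a1 was not tested.

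**Figure D2:**
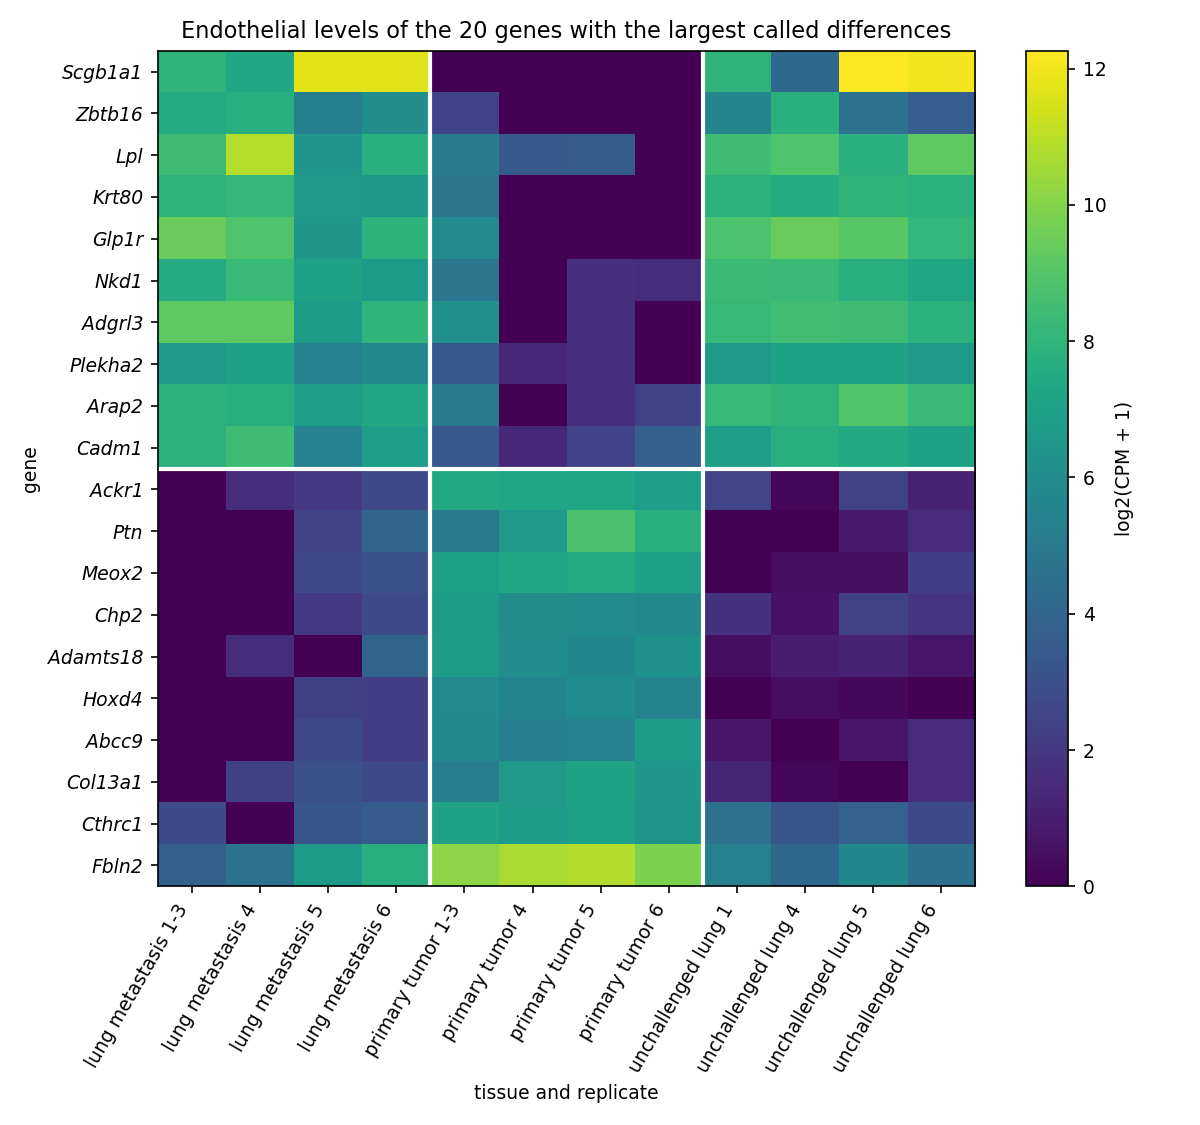
Colors give log2(CPM + 1) in the endothelial cells of each library, for the 10 genes with the largest rise (upper rows) and the 10 with the largest fall (lower rows) in lung metastasis against primary tumor; columns are the 12 libraries of the 3 tissues, split by white lines. In most lower rows lung metastasis replicates 1-3 and 4 are at or near 0 while replicates 5 and 6 hold low values, and in the upper rows primary tumor replicate 1-3 is the highest of its group for 8 of the 10 genes.

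The 10 genes with the largest fall were Ackr1, Ptn, Meox2, Chp2, Adamts18, Hoxd4, Abcc9, Col13a1, Cthrc1 and Fbln2. Ackr1, a receptor of venules that takes up chemokines, was at 0, 2.04, 3.16 and 5.47 CPM in lung metastasis and at 173, 148, 147 and 114 CPM in primary tumor (log2 fold change -5.39 ± 0.39 (SE), edgeR adjusted p 2.96e-05). This was the smallest adjusted p of all genes tested, and the lowest primary tumor library lay far above the highest lung metastasis library. Unchallenged lung read 4.9, 0.177, 4.11 and 1.3 CPM.

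Meox2, a homeobox transcription factor, read 0, 0, 5.53 and 7.3 CPM against 123, 157, 188 and 126 CPM (log2 fold change -5.05 ± 0.48 (SE), edgeR adjusted p 0.00038). Ptn, the growth factor pleiotrophin, read 0, 0, 4.74 and 14.6 CPM against 31.9, 97.7, 428 and 219.6 CPM (log2 fold change -5.07 ± 0.84 (SE), edgeR adjusted p 0.00387). Both were at 0 in lung metastasis replicates 1-3 and 4 and low in replicates 5 and 6. Fbln2, a glycoprotein of the vessel matrix, was the most abundant of these falling genes in primary tumor, at 1129, 1643, 1869 and 932 CPM, against 12.4, 22.5, 101 and 213 CPM in lung metastasis (log2 fold change -3.93 ± 0.66 (SE), edgeR adjusted p 0.00415). Its 4 lung metastasis values split in the same way, with replicates 5 and 6 above the others.

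Among the remaining falling genes of this group, Col13a1, a collagen that spans the cell membrane, read 0, 4.09, 7.1 and 5.47 CPM in lung metastasis and 36.4, 94.3, 131 and 87 CPM in primary tumor, and Cthrc1, a secreted protein linked to collagen matrix, had a log2 fold change of -3.93. Cthrc1 was at a mean of 112.3 CPM in the other cells of the primary tumor libraries and 111.5 CPM in their endothelial cells. The part of RNA from other cells in its value was not tested. Adamts18, a secreted protease, had a log2 fold change of -4.13, and Chp2, a calcium-binding partner of sodium-proton exchangers, one of -4.53. Abcc9 and Kcnj8 encode the 2 kinds of subunit of a potassium channel that is gated by ATP and typical of pericytes. Abcc9 read 0, 0, 5.53 and 3.65 CPM in lung metastasis and 54.6, 37, 43 and 106 CPM in primary tumor, and Kcnj8 0, 0, 1.58 and 3.65 CPM and 36.4, 23.6, 43 and 37.3 CPM, with log2 fold changes of -4.04 and -4.23. They were the 2 members called on a list of 10 pericyte and smooth muscle genes, of which 3 were tested. The summed list read 12.4 to 207 CPM in lung metastasis and 116 to 382 CPM in primary tumor, and its part in these values was not tested. Of its other 8 members, Tagln, a smooth muscle gene, read 6.19, 0, 59.2 and 9.12 CPM in lung metastasis and 264, 33.7, 11.3 and 106 CPM in primary tumor, and Acta2, smooth muscle actin, 0, 0, 81.3 and 12.8 CPM and 0, 11.8, 40.7 and 80.8 CPM. The remaining 6, the defining pericyte genes Pdgfrb and Rgs5 among them, read at most 18.6 CPM in any primary tumor library and at most 37.9 CPM in any lung metastasis library.

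Genes of lung endothelial identity were called higher in lung metastasis more often than lower. On a list of 20 lung endothelial transcription factors and organ genes, 1 of which helped choose the cells, 16 others were tested. Of these, 9 were higher, 2 were lower (Meox2 and Hoxd8) and 5 were not called, beside 4.15% higher and 2.98% lower over all genes tested. The median log2 fold change was 2.46, against 0.04 over all genes tested. Without primary tumor replicate 1-3, 11 of 17 tested were higher and 2 lower, and the log2 fold changes of Foxf1, Ace and Tmem100 were 4.61, 3.37 and 4.98. Foxf1, a forkhead factor that lung capillaries need, read 464, 609, 177 and 213 CPM in lung metastasis and 100.2, 11.8, 11.3 and 18.6 CPM in primary tumor (log2 fold change 3.55 ± 0.66 (SE), edgeR adjusted p 0.00722). In unchallenged lung it read 818, 1039, 507 and 352 CPM, and the difference from lung metastasis did not pass (log2 fold change -0.89 ± 0.54 (SE), edgeR adjusted p 0.51).

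Fendrr, a long noncoding RNA whose gene starts 1276 bases from Foxf1 on the opposite strand, rose with it. Its levels were 316, 564, 158 and 473 CPM in lung metastasis and 50.1, 1.68, 2.26 and 18.6 CPM in primary tumor (log2 fold change 4.65 ± 0.72 (SE), edgeR adjusted p 0.00258). In GRCm38, Foxf1 lies at chr8:121084386-121088144, plus strand, and Fendrr at chr8:121054882-121083110, minus strand. Fendrr was named after its values were seen. The start region of Fendrr (RefSeq, GRCm38.p6, chr8:121083061-121083360, minus strand, 250 bases before to 50 bases after the start) is shown because it lies between these 2 neighbors that moved together, and that of Meox2 (chr12:37108290-37108589, plus strand) because it was the transcription factor gene with the smallest adjusted p among those that fell. Capitals mark CCGGAA, the core bound by ETS factors, and TGTTTA, a forkhead core, on either strand; TAATTA, a homeodomain core, was searched as well.
Fendrr: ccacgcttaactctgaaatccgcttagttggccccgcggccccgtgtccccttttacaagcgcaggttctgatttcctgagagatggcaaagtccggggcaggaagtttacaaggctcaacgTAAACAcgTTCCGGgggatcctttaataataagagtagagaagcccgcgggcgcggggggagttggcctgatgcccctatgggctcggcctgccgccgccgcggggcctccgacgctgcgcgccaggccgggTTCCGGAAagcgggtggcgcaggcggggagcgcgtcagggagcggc
Meox2: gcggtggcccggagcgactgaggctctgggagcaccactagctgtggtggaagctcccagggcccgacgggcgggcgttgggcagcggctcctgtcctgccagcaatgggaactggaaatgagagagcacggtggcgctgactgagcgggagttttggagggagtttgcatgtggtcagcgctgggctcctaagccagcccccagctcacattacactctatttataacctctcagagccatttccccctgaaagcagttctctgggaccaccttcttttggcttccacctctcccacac
The Fendrr window held 3 matches to CCGGAA, 2 of which overlap as a palindrome, and 1 to TGTTTA. The Meox2 window held none of the 3 letter patterns. Among 27025 start regions of the same length, 15.2% held CCGGAA, 13.4% TGTTTA and 5.31% TAATTA. Among 5462 genes tested here whose start region was found, the shares were 31.6%, 7.74% and 1.92%, and among 217 of the 284 genes called higher 14.3%, 7.83% and 1.38%. The 154 of 204 genes called lower that were found had them in 11.7%, 13.6% and 1.95%. A match describes letters only.

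Ace, angiotensin-converting enzyme, which sits on lung capillaries, read 1356, 1288, 548 and 905 CPM in lung metastasis against 264, 108, 109 and 64.2 CPM in primary tumor (log2 fold change 2.90 ± 0.44 (SE), edgeR adjusted p 0.00233). Tbx2 and Tbx3, T-box factors of the lung, had log2 fold changes of 3.23 and 3.54, and Calcrl, the receptor for adrenomedullin, one of 2.38. Tmem100, a membrane protein induced by ALK1 signaling, read 1139, 2453, 646 and 569 CPM against 437, 37, 33.9 and 37.3 CPM (log2 fold change 3.21 ± 0.83 (SE), edgeR adjusted p 0.0355). Hpgd read 2279, 5662, 1065 and 1308 CPM against 509.9, 1.68, 4.52 and 0 CPM and did not pass with all libraries (log2 fold change 4.44 ± 1.39 (SE), edgeR adjusted p 0.0784). Without primary tumor replicate 1-3 it was called, with a log2 fold change of 10.12 (edgeR adjusted p 0.00029), and with the replicate number as a block it had an edgeR adjusted p of 0.00866.

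Hox genes record the position of a cell along the body axis, and they were called in both directions. Of 26 Hox genes with a UMI, 9 passed the filter; 1 was higher in lung metastasis and 5 were lower, beside 4.15% and 2.98% of all genes tested. Hoxa5, which is needed for lung development, read 167, 190.1, 71 and 151 CPM in lung metastasis, 18.2, 16.8, 33.9 and 24.9 CPM in primary tumor and 156, 162, 200.2 and 121 CPM in unchallenged lung (log2 fold change 2.53 ± 0.36 (SE), edgeR adjusted p 0.00184 against primary tumor). Hoxd4 and Hoxd8 went the other way. Hoxd4 was at 0, 0, 3.95 and 3.65 CPM in lung metastasis and 59.2, 45.5, 61.1 and 43.5 CPM in primary tumor (log2 fold change -4.13 ± 0.49 (SE), edgeR adjusted p 0.00102), and Hoxd8 at 0, 0, 6.31 and 3.65 CPM in lung metastasis and 41, 53.9, 56.6 and 41.4 CPM in primary tumor (log2 fold change -3.61 ± 0.51 (SE), edgeR adjusted p 0.00178).

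The 3 other Hox genes called, named after their values were seen, were Hoxb7, Hoxb8 and Hoxa7. Hoxb7 read 0, 0, 2.37 and 0 CPM in lung metastasis and 41, 52.2, 56.6 and 47.6 CPM in primary tumor, on 0 to 3 and 9 to 31 UMIs per library (log2 fold change -5.16 ± 0.55 (SE), edgeR adjusted p 0.000796). Unchallenged lung held at most 0.7 CPM. Hoxb8 and Hoxa7 had log2 fold changes of -4.69 and -2.28. Hoxb9 was below the filter, with no UMI in any lung metastasis library and 22.8, 15.2, 20.4 and 35.2 CPM in primary tumor, at least 18.9-fold higher against a floor of 3 UMIs over the lung metastasis group. Hoxb3, Hoxb4 and Hoxb5 were not called (log2 fold changes -0.98, 0.22 and -0.12). Genes of 1 Hox cluster lie close together on the same strand, and reads were not checked for overlap between neighbors such as Hoxd3 and Hoxd4.

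General capillary genes of the lung were called higher in lung metastasis more often than lower. All 12 general capillary genes were tested, and 8 were higher (Glp1r, Kit, Sema3c, Cadm1, Hilpda, Lpl, Itga1 and Clec1a), 2 were lower (Aplnr and Cd300lg) and 2 were not called, with a median log2 fold change of 2.62. The shares over all genes tested were 4.15% higher and 2.98% lower. Without primary tumor replicate 1-3, 9 were higher and 2 lower. Clec1a, a C-type lectin, read 718, 824, 358 and 626 CPM in lung metastasis and 146, 32, 72.4 and 76.6 CPM in primary tumor (log2 fold change 2.97 ± 0.42 (SE), edgeR adjusted p 0.00181). Hilpda, a lipid droplet protein, read 372, 395, 234 and 285 CPM against 109, 38.7, 29.4 and 49.7 CPM (log2 fold change 2.54 ± 0.38 (SE), edgeR adjusted p 0.00222). Gpihbp1, which carries lipoprotein lipase across capillary cells, was at 1641, 1494, 2636 and 985 CPM against 769, 901, 781 and 692 CPM and did not pass (log2 fold change 1.09 ± 0.34 (SE), edgeR adjusted p 0.0784), although the libraries did not overlap.

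Of 16 aerocyte genes, 14 outside the rule were tested, with a median of 1.87. Among them 7 were higher, Igfbp7 was lower and 6 were not called, beside 4.15% and 2.98% of all genes tested. DESeq2 called 5 higher. In runs 1 and 2 alone, with 2 libraries a side, 1 was higher, and in run 3 alone 8 were. Tbx2 read 111, 79.7, 175 and 54.7 CPM in lung metastasis and 31.9, 3.37, 6.79 and 12.4 CPM in primary tumor (log2 fold change 3.23 ± 0.56 (SE), edgeR adjusted p 0.00488). Fibin, Prx, Nckap5, Pmp22, Ptp4a3 and Kitl made up the rest, with log2 fold changes from 1.21 (Kitl, the ligand of the receptor Kit) to 3.70 (Nckap5). The 2 hallmark genes of aerocytes were not called. Car4 read 279, 366, 664 and 221 CPM against 232, 0, 2.26 and 0 CPM (log2 fold change 3.04 ± 1.16 (SE), edgeR adjusted p 0.157), and Ednrb 179.6, 198, 373 and 204 CPM against 328, 443, 314 and 383 CPM (log2 fold change -0.62 ± 0.31 (SE), edgeR adjusted p 0.301). Without primary tumor replicate 1-3, Car4 was called, with a log2 fold change of 8.73 (edgeR adjusted p 0.00029), and 10 of the 14 genes were higher. With the replicate number as a block it had an edgeR adjusted p of 0.0281.

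With all libraries in the fit, the venous genes that edgeR called were all lower in lung metastasis. Of 14 venous genes 13 were tested, none was higher, 5 were lower (Ackr1, Selp, Vcan, Nr2f2 and Lrg1) and 8 were not called. The median log2 fold change was -0.94, and 2.98% of all genes tested were lower. Without primary tumor replicate 1-3, 4 were lower, and in run 3 alone 1 was higher and 3 were lower. Selp, P-selectin, which catches rolling leukocytes, read 0, 4.09, 16.6 and 36.5 CPM in lung metastasis and 200.3, 335, 210.4 and 124 CPM in primary tumor (log2 fold change -3.70 ± 0.56 (SE), edgeR adjusted p 0.00226). Nr2f2, the factor that sets vein identity, read 12.4, 69.5, 48.2 and 177 CPM against 455, 234, 353 and 333 CPM (log2 fold change -2.10 ± 0.50 (SE), edgeR adjusted p 0.0241). Vcan, a large matrix proteoglycan, had a log2 fold change of -3.37.

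Vwf, von Willebrand factor, is on the same list and was not called, at 309.6, 1206, 684 and 1721 CPM against 779, 687, 724 and 669 CPM (log2 fold change 0.44 ± 0.43 (SE), edgeR adjusted p 0.68). The adhesion list had 12 of 17 genes tested, with Icam2 higher (1.65) and Selp lower, beside 4.15% and 2.98% of all genes tested. Icam1 read 136, 239, 129 and 100.4 CPM against 68.3, 229, 83.7 and 76.6 CPM (edgeR adjusted p 0.764), and Vcam1 6.19, 42.9, 41.8 and 117 CPM against 31.9, 94.3, 22.6 and 14.5 CPM (edgeR adjusted p 0.845); both groups overlapped. Sele, E-selectin, was below the filter at 0, 0, 3.16 and 7.3 CPM in lung metastasis and 41, 90.9, 9.05 and 10.4 CPM in primary tumor, where every library was above every lung metastasis library. Plvap, which forms the diaphragms of fenestrated capillaries, was lower in lung metastasis at 718, 801, 1051 and 546 CPM against 2113, 2073, 1896 and 1266 CPM (log2 fold change -1.26 ± 0.32 (SE), edgeR adjusted p 0.0332).

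Lymphatic genes gave 1 call among 8 tested of 10, Stab1, a scavenger receptor (-1.58), beside 2.98% of all genes tested called lower. The median log2 fold change was -2.23. With the replicate number as a block 5 were lower. Without primary tumor replicate 1-3 none was, although 6 had an unadjusted edgeR p under 0.05 on the lower side. In runs 1 and 2 alone 6 of 8 were lower, and in run 3 alone 2 of 9 were. DESeq2, over all libraries, called 2. Prox1, the master factor of lymphatic identity, read 0, 0, 11.8 and 87.6 CPM in lung metastasis and 269, 37, 147 and 153 CPM in primary tumor (log2 fold change -2.43 ± 0.85 (SE), edgeR adjusted p 0.117). Lyve1, a hyaluronan receptor that lung capillaries also express, read 1096, 1834, 700.2 and 901 CPM against 942, 99.3, 312 and 481 CPM and was not called (log2 fold change 1.29 ± 0.53 (SE), edgeR adjusted p 0.194). When every cell with a UMI of Prox1, Mmrn1, Ccl21a or Reln was left out, 473 genes were called, 250 higher and 223 lower, and 390 of the 462 earlier calls still tested were called in the same direction.

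The share of cells with markers of a subtype was compared per library, after each cell was thinned to 1000 UMIs. A cell counted when it held at least 2 of 6 markers. General capillary markers were found in 74.1, 74.3, 28.1 and 39.1% of cells in lung metastasis and 26.2, 3.53, 10.7 and 7.5% in primary tumor (53.9% ± 23.8 against 12% ± 9.92, SD, n = 4 each; two-sided exact permutation p 0.0286, adjusted over 7 shares 0.1). Every lung metastasis library lay above every primary tumor library. Venous markers went the other way, with 3.7, 18.8, 12.6 and 13.5% against 26.2, 32.9, 24 and 20.0% (exact permutation p 0.0286, adjusted 0.1). With 4 libraries a side, 0.0286 is the smallest p this test can give, and neither share passed 0.05 once adjusted.

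Lymphatic markers were found in 3.7, 2.97, 4.79 and 9.02% of cells in lung metastasis and 19, 7.06, 16 and 15% in primary tumor (exact permutation p 0.0571, adjusted 0.133). The groups overlapped, since the highest lung metastasis library was above the lowest primary tumor library. Aerocyte markers read 8.64, 8.91, 22.8 and 4.51% and 7.14, 2.35, 1.33 and 6.25% (exact permutation p 0.114, adjusted 0.16), and arterial markers 5.38% ± 2.13 and 7.46% ± 3.02 (SD, n = 4 each; exact permutation p 0.314, adjusted 0.367). Cycling markers read 0, 0, 4.49 and 2.26% and 4.76, 3.53, 5.33 and 2.5% (exact permutation p 0.114, adjusted 0.16). Without thinning, the general capillary share was 84.5, 89.1, 59.1 and 64.2% against 44.2, 29.4, 22.7 and 45.7%, and the venous share 5.95, 40.6, 21.5 and 23.9% against 44.2, 65.9, 42.7 and 37%. The aerocyte share without thinning was 9.52, 11.9, 39.1 and 9.7% against 11.6, 16.5, 16 and 34.6%, so that its mean difference turned from 6.93 to -2.11 percentage points. With 1 marker in place of 2, the lymphatic difference turned from -9.15 to 20.5 percentage points and the aerocyte one to -5.64. Leukocytes were taken as cells with a UMI of Ptprc and no UMI of the 6 endothelial marker genes of the rule. Of these, at most 1.22% in any library had 2 general capillary markers and at most 0.739% had 2 venous markers. The choice itself removed cells that caught stray endothelial marker RNA, so these shares do not measure it. Leukocytes had a median of 1683 to 5692.5 UMIs in libraries with more than 1 of them; primary tumor replicate 5 held 1 leukocyte and replicate 6 held 0. The share of a single library is imprecise, as the 11 of 42 cells with general capillary markers in primary tumor replicate 1-3 give an exact binomial 95% interval of 13.9% to 42.0%, for counting error only.

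**Figure D3:**
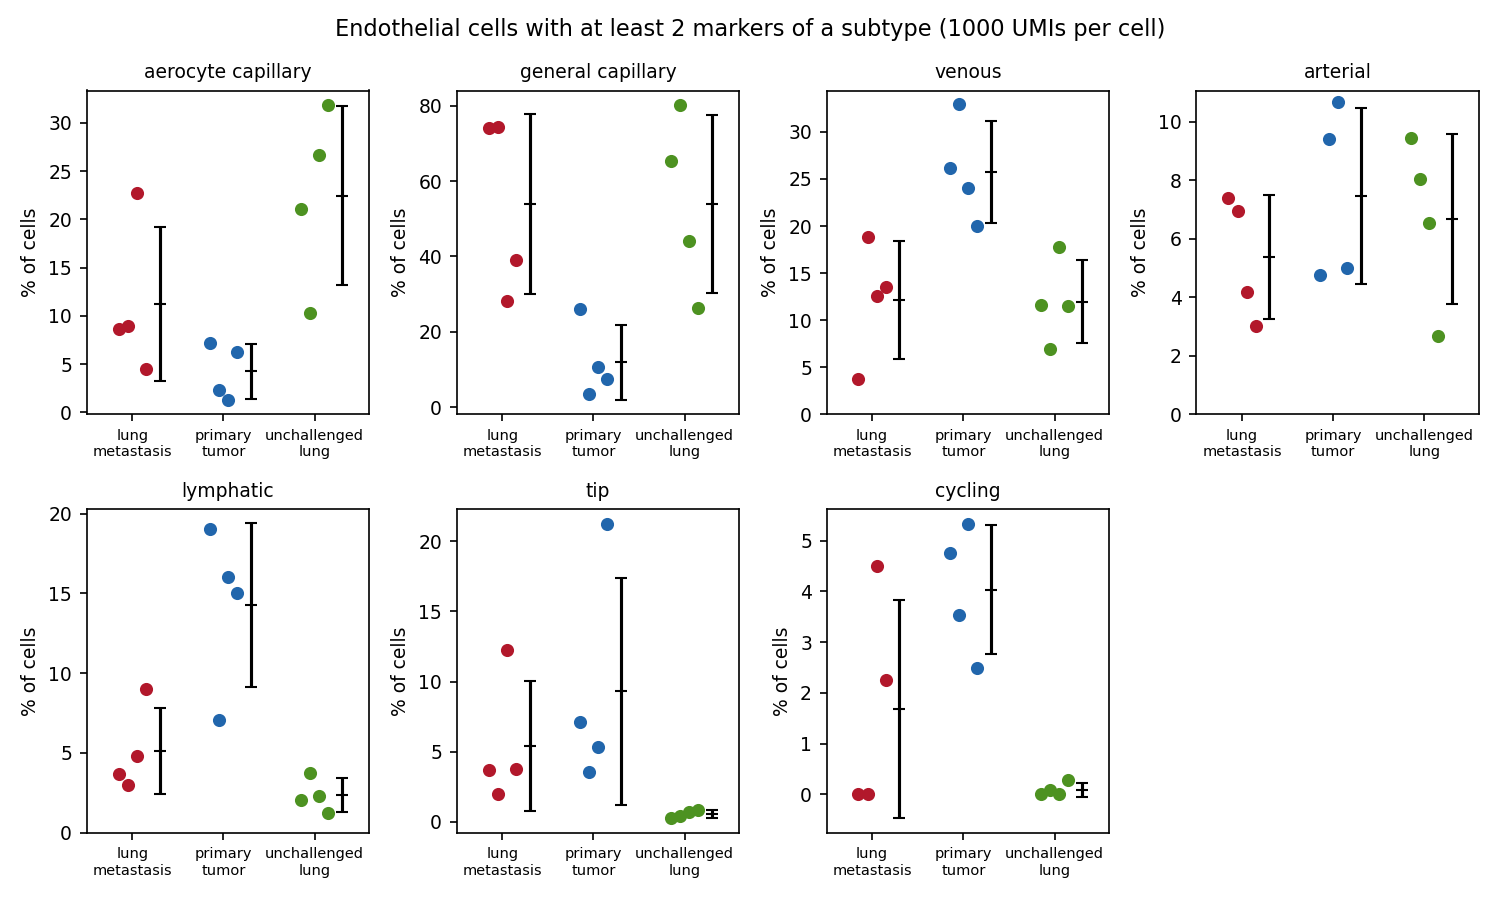
Points give the percent of endothelial cells of 1 library with at least 2 of 6 markers of a subtype, each cell thinned to 1000 UMIs, for 4 libraries of each tissue; bars give the mean and SD. The lung metastasis points lie above all primary tumor points for general capillary markers and below all of them for venous markers.

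More angiogenic genes were lower than higher in lung metastasis. Of 26 tip and angiogenic genes, 25 were tested, and the median was -0.54. In lung metastasis 7 were lower (Plxnd1, Nid2, Insr, Aplnr, Plvap, Mmp14 and Kcne3) and 2 were higher (Sox11 and Pcdh17). The shares over all genes tested were 2.98% lower and 4.15% higher. Insr, the insulin receptor, read 99.1, 85.9, 43.4 and 128 CPM in lung metastasis and 373, 311, 244 and 470.2 CPM in primary tumor (log2 fold change -2.03 ± 0.34 (SE), edgeR adjusted p 0.00413). Kcne3, a potassium channel subunit found in tip cells, read 0, 4.09, 22.9 and 0 CPM against 31.9, 116, 129 and 168 CPM (log2 fold change -3.44 ± 0.69 (SE), edgeR adjusted p 0.011). Pcdh17, a protocadherin, read 848, 707, 543 and 662 CPM against 178, 157, 131 and 219.6 CPM (log2 fold change 1.97 ± 0.27 (SE), edgeR adjusted p 0.00173).

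Esm1, Angpt2 and Apln, all made by tip cells, were not called. Esm1 read 61.9, 51.1, 174 and 109 CPM in lung metastasis, 95.6, 104, 86 and 358 CPM in primary tumor and 9.1, 25.5, 19.5 and 28.6 CPM in unchallenged lung (edgeR adjusted p 0.574 against primary tumor and 0.0367 against unchallenged lung). Angpt2, an antagonist of Tie2 that loosens vessels, read 24.8, 16.4, 292 and 109 CPM in lung metastasis and 150.2, 80.8, 127 and 282 CPM in primary tumor, and the groups overlapped. Apln, the ligand of the receptor Aplnr, read 111, 6.13, 506 and 73 CPM in lung metastasis and 31.9, 72.4, 45.2 and 205 CPM in primary tumor, also with overlap. Tip markers were found in 3.7, 1.98, 12.3 and 3.76% of lung metastasis cells, 7.14, 3.53, 5.33 and 21.2% of primary tumor cells and 0.274, 0.401, 0.7 and 0.845% of unchallenged lung cells. The difference from primary tumor did not pass (exact permutation p 0.514, adjusted 0.514), and that from unchallenged lung had an exact permutation p of 0.0286, or 0.2 adjusted over 7 shares.

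Basement membrane genes gave 2 calls among 20 tested, Itga1 (an integrin subunit, 2.05) higher and Nid2 (nidogen 2, -2.35) lower, beside 4.15% and 2.98% of all genes tested, with a median of -0.84. With the replicate number as a block 7 were lower, as were 3 of 4 tested fibroblast genes, whose part was not tested. In runs 1 and 2 alone 11 were lower, and in run 3 alone 3 were. Col4a1, the main chain of type IV collagen, read 1276, 677, 3052 and 2228 CPM in lung metastasis, 2167, 2935, 2699 and 4615 CPM in primary tumor and 656, 624, 519 and 425 CPM in unchallenged lung. Sparc, a matricellular protein, read 1219.9, 239, 5908 and 1768 CPM in lung metastasis, 3579, 6846, 5294 and 3927 CPM in primary tumor and 456, 334, 172 and 131 CPM in unchallenged lung. For both genes lung metastasis overlapped primary tumor (edgeR adjusted p 0.398 and 0.459). Against unchallenged lung, 8 of the 20 genes were higher (Col4a2, Lama4, Lamb1, Hspg2, Nid2, Sparc, Col15a1 and Col18a1) and none was lower, with a median of 1.69, beside 1.31% of all genes tested called higher there. In runs 1 and 2 alone 1 was higher, beside 23 of all 8076 genes tested there. In run 3 alone 11 were, beside 330 of all 9810.

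A pair of abundant genes split the lung metastasis libraries. Igfbp3, a binding protein of insulin-like growth factors, read 61.9, 14.3, 793 and 639 CPM in lung metastasis, 1694, 2024, 1489 and 3161 CPM in primary tumor and 5.25, 1.06, 0 and 7.79 CPM in unchallenged lung. It did not overlap with primary tumor but was not called (edgeR adjusted p 0.114), and was higher than in unchallenged lung (log2 fold change 7.10 ± 1.21 (SE), edgeR adjusted p 0.00939). Fabp4, a fatty acid binding protein of peripheral capillaries, read 18.6, 57.2, 1147 and 192 CPM in lung metastasis, 2363, 2753, 1640.2 and 1429 CPM in primary tumor and 48.3, 7.44, 59 and 51.3 CPM in unchallenged lung. Lung metastasis replicates 5 and 6 were the 2 highest of their group for both genes, and replicates 1-3 and 4 were the 2 lowest. Fabp4 had no overlap with primary tumor but did not pass (log2 fold change -2.46 ± 0.88 (SE), edgeR adjusted p 0.124). Each of the 2 genes passed against primary tumor in 7 of 23 other settings. Their log2 fold changes there ranged from -6.00 to -1.70 for Igfbp3 and from -6.00 to -1.18 for Fabp4.

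**Figure D4:**
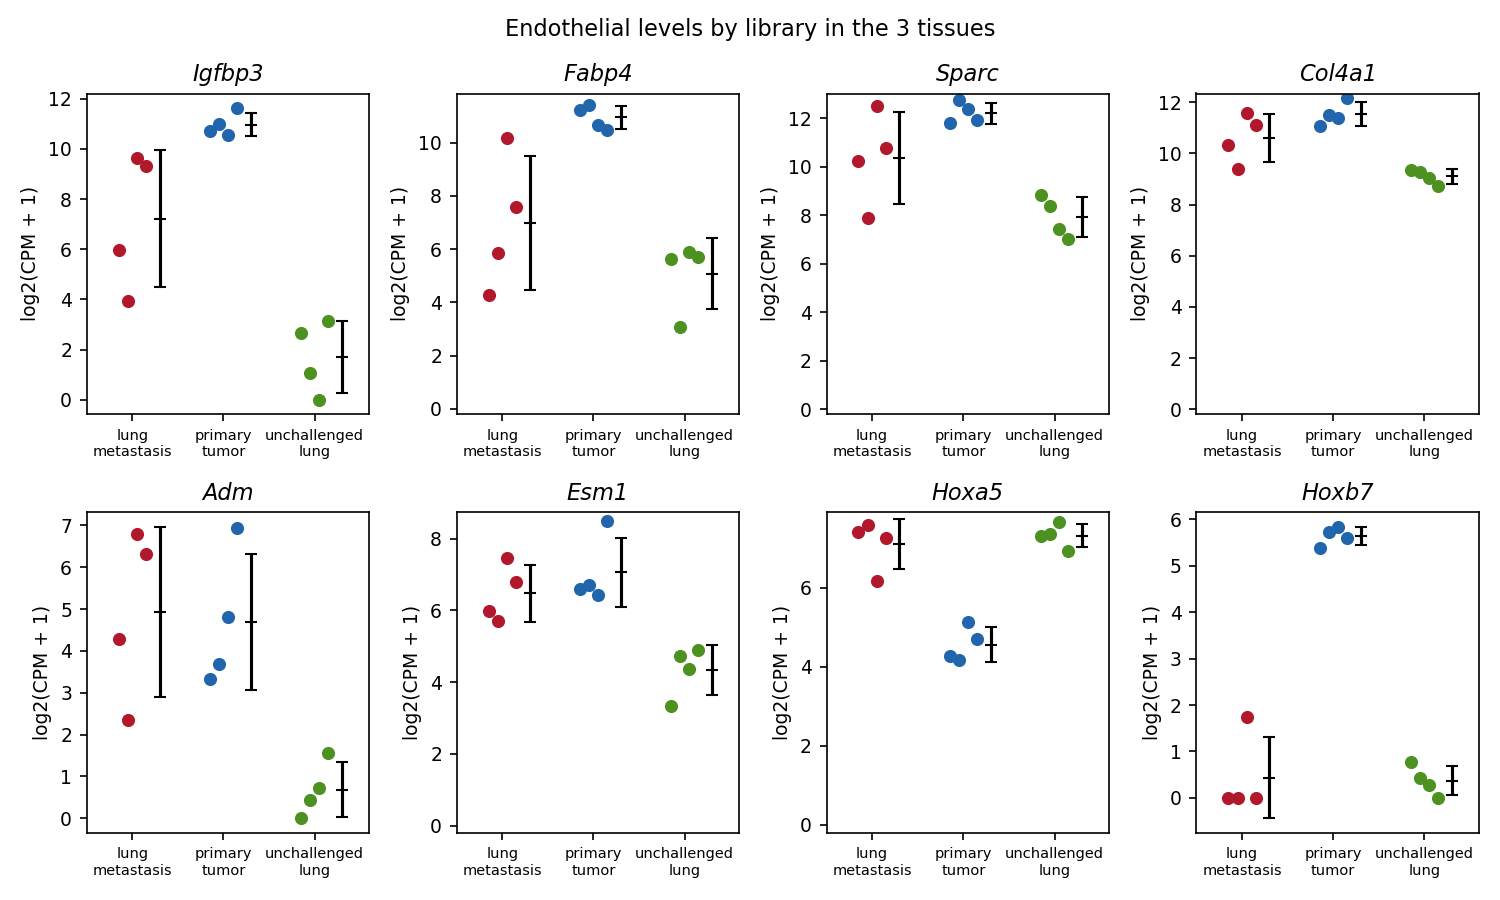
Points give log2(CPM + 1) in the endothelial cells of each library for 8 genes in 3 tissues, with bars for the mean and SD of 4 libraries. Igfbp3, Fabp4, Sparc and Col4a1 spread widely among lung metastasis libraries, Hoxa5 sits near unchallenged lung in all 4, and Hoxb7 is found at 5 or more units in primary tumor alone.

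The libraries were also described cell by cell. Igfbp3 itself is in the primary-tumor-type set, so these counts give no separate support for the split. With cells thinned to 1000 UMIs and the gene sets named above, 62 of 81, 96 of 101, 162 of 334 and 65 of 133 lung metastasis cells held at least 2 lung-type genes and fewer than 2 primary-tumor-type genes. Cells of the reverse kind numbered 0, 0, 8 and 9 in lung metastasis, and 10 of 42, 41 of 85, 31 of 75 and 32 of 80 in primary tumor. By counting error alone, 0 of 81 and 0 of 101 allow up to 4.45% and 3.59% (exact binomial 95% interval). Lung metastasis replicate 5, at 2.40%, lay within these limits, and replicate 6, at 6.77%, lay above them. Cells with both kinds were rare, at most 1 in any lung metastasis or primary tumor library. At 1000 UMIs many cells held neither kind, such as 163 of 334 in lung metastasis replicate 5 and 24 of 42 in primary tumor replicate 1-3. Few cells with both would then be counted in any case, so this does not show separate kinds of cell. In unchallenged lung 59.9% to 96.1% of cells had the lung-type genes alone, and 0.0803% to 1.32% the primary-tumor-type genes alone. Since the genes were picked from these libraries, the counts are a description.

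The run number in the library names followed the replicate number, so both tissues were present in each of 3 runs. Runs 1 and 2, with replicates 1-3 and 4, called 324 genes higher and 361 lower of 6161 tested. Run 3, with replicates 5 and 6, called 186 higher and 118 lower of 7347 tested. Each fit had 2 libraries a side, and counts of list members against primary tumor in these runs stand beside these numbers. With run as a block over all 8 libraries, 341 were higher and 267 lower. These fits were added after the data were seen.

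**Figure D5:**
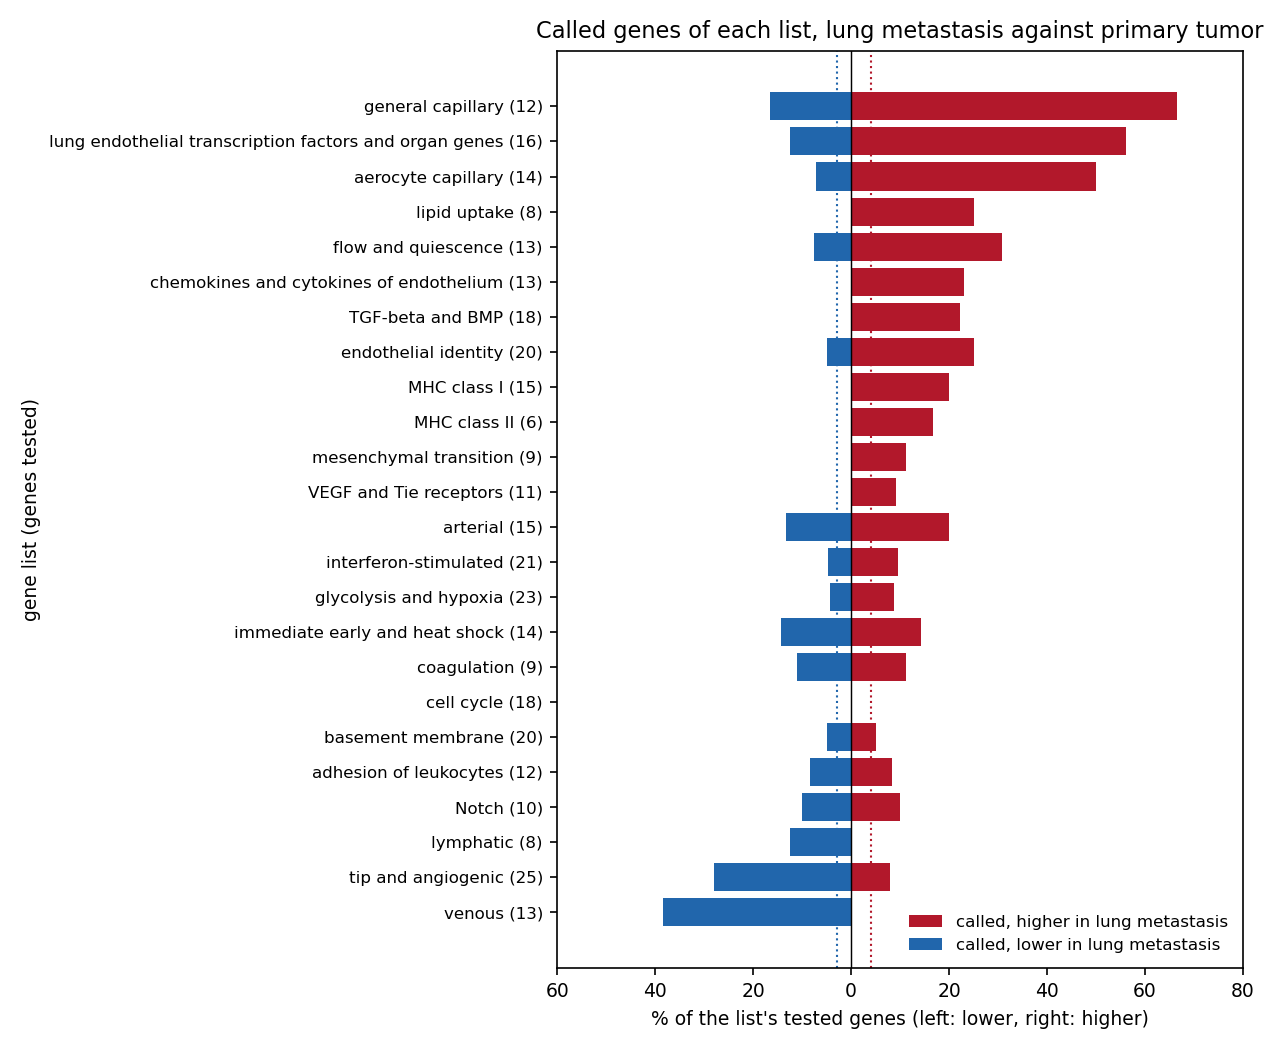
Bars give, for each list of endothelial or pathway genes (lists of other cell types are not drawn), the percent of its tested genes (number in parentheses) called higher (right, red) or lower (left, blue) in lung metastasis endothelium against primary tumor; dotted lines give the shares over all genes, 4.15% and 2.98%. The general capillary, lung transcription factor and aerocyte lists reach farthest to the right and the venous list farthest to the left among the lists drawn.

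Signaling lists were called in part. Of 20 TGF-beta and BMP genes, 18 were tested, and the median was 0.46. Among them 4 were higher (Acvrl1, Bmpr2, Bmp6 and Tmem100) and none was lower, beside 4.15% and 2.98% of all genes tested. Acvrl1, the receptor ALK1 that restrains sprouting, read 817, 1216, 639 and 462 CPM in lung metastasis and 341, 133, 143 and 122 CPM in primary tumor (log2 fold change 2.08 ± 0.40 (SE), edgeR adjusted p 0.00932). Bmpr2, its partner, read 1331, 2784, 511 and 783 CPM against 555, 332, 342 and 344 CPM (log2 fold change 1.75 ± 0.46 (SE), edgeR adjusted p 0.0394), where the highest primary tumor library was above the lowest lung metastasis library. Of 10 Notch genes tested, Hey1, a target of Notch, was higher (1.99) and Nrarp, an inhibitor of the pathway, lower (-1.07), beside 4.15% and 2.98% of all genes tested. Of 11 VEGF and Tie genes tested outside the rule, edgeR called Vegfa alone, as higher, beside 4.15% of all genes tested. Vegfa read 353, 787, 48.9 and 186 CPM against 54.6, 5.05, 29.4 and 12.4 CPM (log2 fold change 3.89 ± 0.81 (SE), edgeR adjusted p 0.0126). DESeq2 called 2 of the 11 higher and 2 lower, and edgeR with the replicate number as a block 1 higher and 1 lower.

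Genes of flow and blood clotting were called in both directions, beside 4.15% of all genes tested called higher and 2.98% lower. Of 13 flow and quiescence genes tested, 4 were higher (Thbd, Cav1, Ptgis and Slc9a3r2) and Nos3, the endothelial nitric oxide synthase, was lower at 37.2, 63.4, 56 and 73 CPM against 127, 106, 136 and 97.4 CPM (log2 fold change -0.99 ± 0.26 (SE), edgeR adjusted p 0.0392). Under the replicate block edgeR called 3 of the 13 higher and none lower, with 1 lower at an unadjusted p under 0.05; Nos3 was not called. Klf2, the main flow-responsive factor, was not called, at 452, 791, 359 and 436 CPM against 601, 443, 547 and 263 CPM. Thbd and Procr, both of the protein C system, were called in opposite directions. Thbd, thrombomodulin, which turns thrombin into an activator of protein C, read 1449, 1259, 266 and 558 CPM against 437, 141, 90.5 and 109.8 CPM (log2 fold change 2.16 ± 0.58 (SE), edgeR adjusted p 0.0403). Procr, the protein C receptor, read 18.6, 4.09, 77.4 and 67.5 CPM against 200.3, 226, 244 and 109.8 CPM (log2 fold change -2.07 ± 0.56 (SE), edgeR adjusted p 0.0429). They were the 2 edgeR calls among 9 coagulation genes tested, beside 4.15% of all genes tested called higher and 2.98% lower. DESeq2 called 1 of the 9 higher and 2 lower.

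Arterial genes were called in both directions, with Hey1, Sox17 and Cxcl12 higher and Dkk2 and Fbln5 lower among 15 tested. The shares over all genes tested were 4.15% and 2.98%. Cxcl12, the chemokine that binds Cxcr4, read 458, 750.2, 267 and 367 CPM in lung metastasis and 178, 62.3, 38.5 and 80.8 CPM in primary tumor (log2 fold change 2.38 ± 0.45 (SE), edgeR adjusted p 0.00814). Fbln5, an elastic fiber protein, read 24.8, 49.1, 88.4 and 144 CPM against 423, 673, 654 and 369 CPM (log2 fold change -2.74 ± 0.44 (SE), edgeR adjusted p 0.00333). Of 13 chemokine and cytokine genes tested, Cxcl12, Kitl and Lifr were higher and none lower, beside 4.15% and 2.98% of all genes tested. Of 8 lipid uptake genes tested, Lpl and Cd36 were higher, beside 4.15% of all genes tested. Cd36, a fatty acid transporter, read 1802, 1699, 457 and 708 CPM against 619, 123, 76.9 and 116 CPM (log2 fold change 2.31 ± 0.64 (SE), edgeR adjusted p 0.0485).

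Antigen presentation genes were called in 1 direction. Of 15 class I genes tested, 3 were higher (H2-Q6, H2-Q7 and Psmb10), beside 4.15% of all genes tested, and none lower, and H2-K1 read 3041, 1780.4, 1464 and 1434 CPM against 1457, 751, 957 and 557 CPM (edgeR adjusted p 0.129). H2-Q6 and H2-Q7 are near-identical copies, and reads could be split between them. Of 6 class II genes tested, H2-DMb1 was higher (130.0, 34.7, 34.7 and 54.7 CPM against 18.2, 15.2, 4.52 and 0 CPM), and none was lower. The shares over all genes tested were 4.15% and 2.98%. None of the 6 was called by edgeR in runs 1 and 2 alone. There 4 were higher at an unadjusted p under 0.05, beside 1642 of all 6161 genes in either direction. In run 3 alone all 6 were higher, beside 186 of all 7347 genes tested. DESeq2, over all libraries, called 1 higher. H2-Ab1 read 508, 225, 166 and 199 CPM against 95.6, 119.5, 22.6 and 0 CPM and was not called (edgeR adjusted p 0.113), with no overlap between tissues. Macrophages carry class II genes at high levels, and the macrophage list of 14 genes summed to 594, 315, 784 and 889 CPM in lung metastasis and 738, 1635, 244 and 261 CPM in primary tumor endothelium. For run 3 alone 2 of the 3 tested macrophage genes were higher, beside the same 186 of 7347. For runs 1 and 2 alone 3 of 6 were lower, beside 361 of all 6161 genes tested. The part of macrophage RNA was not tested. Of 21 interferon-stimulated genes tested, Irf1 and Ifi35 were higher and Ifi27l2a was lower, beside 4.15% and 2.98% of all genes tested.

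Among stress genes, Jun (2.00) and Ier3 (1.78) were higher and Hsph1, a heat shock protein (-2.20), and Nr4a1 (-1.96) lower, of 14 tested. The shares over all genes tested were 4.15% and 2.98%. Of 23 glycolysis and hypoxia genes tested, Vegfa and Ankrd37 were higher and Ndrg1 was lower, beside 4.15% and 2.98% of all genes tested, with a median of 0.02. Of 21 tested in runs 1 and 2 alone, 4 were higher and 6 lower, beside 324 and 361 of all 6161 genes tested. Of 23 in run 3 alone 2 were higher and none lower, beside 186 and 118 of all 7347. Ankrd37, a hypoxia target, read 130.0, 96.1, 139.7 and 93.1 CPM in lung metastasis, 41, 13.5, 4.52 and 14.5 CPM in primary tumor and 5.95, 3.19, 6.48 and 11.7 CPM in unchallenged lung, and was called in both comparisons. None of 18 cell cycle genes was called by edgeR, and DESeq2 called 1 higher. At an unadjusted edgeR p under 0.05 there were 3 higher and 1 lower, beside 1310 of all 6840 genes tested in either direction. In runs 1 and 2 alone 8 of 15 were lower, beside 361 of all 6161 genes tested. The replicate block called 1 of 18 higher, and run 3 alone 1 of 19 higher, with none lower in either. Mki67, which marks dividing cells, read 0, 2.04, 51.3 and 38.3 CPM against 91.1, 57.2, 27.1 and 74.6 CPM. Of 9 mesenchymal transition genes tested, edgeR called Zeb2 higher (2.42) and none lower, beside 4.15% and 2.98% of all genes tested. At an unadjusted edgeR p under 0.05 there were 4 lower, beside the same 1310 of 6840 in either direction, and the median was -0.90. DESeq2 and the replicate block each called 1 higher and 1 lower. For runs 1 and 2 alone 5 of 8 were lower, beside 361 of all 6161 genes tested.

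The second comparison set lung metastasis endothelium against that of unchallenged lung, with all 3 tissues in the fit. The lung metastasis libraries are the same as above, so the comparisons are not independent. Of 8223 genes tested 120 passed (1.46%), 108 higher in lung metastasis (1.31%) and 12 lower (0.146%); 1080 had an unadjusted p under 0.05 and DESeq2 called 208. This count moved more than the first. There were 23 called of 8076 tested in runs 1 and 2 alone, all higher. In run 3 alone 487 of 9810 were called, 330 higher and 157 lower. Of 106 of the 120 genes that were tested in runs 1 and 2, 14 were called in the same direction and 12 changed direction. Without lung metastasis replicate 5 it was 39, without replicate 6 it was 52, without replicate 4 it was 291, and without unchallenged lung replicate 1, 4 or 5 it was 55, 76 and 58. Unchallenged lung replicate 5 was the 1 library of 12 with almost no Xist RNA, at 0.865 CPM against 695 CPM or more in the others. Xist is the RNA that silences an X chromosome in females.

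The 5 genes with the largest rise over unchallenged lung were Ptgds, Syt4, Cited1, Syngr1 and Igfbp3. The first 4 were far more abundant in the other cells of the lung metastasis libraries than in endothelial cells, at means of 799, 793, 268 and 281 CPM against 215, 102, 51.6 and 77 CPM. Of 8 melanoma genes outside the rule, the summed level was 200.3 to 1349.8 CPM in lung metastasis endothelium, 124 to 452 CPM in primary tumor and 12.9 to 44.2 CPM in unchallenged lung. The part of melanoma RNA in these calls was not tested. With melanoma genes limited to under 0.1% of UMIs, lung metastasis replicate 5 kept 5 cells and dropped out of the fit, and 16 genes were called.

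Several tip and angiogenic genes were higher than in unchallenged lung. Of 25 tip and angiogenic genes tested, 8 were called higher by edgeR (Esm1, Pgf, Adm, Nid2, Trp53i11, Rgcc, Mmp14 and Igfbp3) and none lower, beside 1.31% of all genes tested called higher and 0.146% lower. DESeq2 also called 8 higher and none lower, and 13 were higher and none lower at an unadjusted p under 0.05 (edgeR). In runs 1 and 2 alone none was called by edgeR, with 4 higher and 1 lower at an unadjusted p under 0.05. In run 3 alone 12 were higher and 1 was lower, beside 330 and 157 of all 9810 genes tested. Adm, adrenomedullin, a peptide that keeps vessels tight, read 18.6, 4.09, 109.7 and 78.5 CPM against 0, 0.354, 0.648 and 1.95 CPM (log2 fold change 6.59 ± 1.05 (SE), edgeR adjusted p 0.00575). Pgf, placental growth factor, read 0, 0, 76.6 and 45.6 CPM against 0.35, 0.177, 0.648 and 0.65 CPM, with no UMI in lung metastasis replicates 1-3 and 4 (edgeR adjusted p 0.00941).

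Cell cycle genes gave 6 calls of 19 tested, all higher (Mki67, Top2a, Ccnb2, Birc5, Cenpf and Tpx2), beside 1.31% of all genes tested. With the replicate number as a block none was called, with 11 higher at an unadjusted p under 0.05, and DESeq2 without the block called 7. For runs 1 and 2 alone edgeR called none of 18, beside 23 of all 8076 genes tested. For run 3 alone 10 of 23 were higher, beside 330 of all 9810. Mki67 read 0, 2.04, 51.3 and 38.3 CPM against 1.05, 1.06, 1.51 and 7.79 CPM. The levels came from lung metastasis replicates 5 and 6, where cycling markers were found in 4.49% and 2.26% of cells, against 0 of 81 and 0 of 101 cells in replicates 1-3 and 4, which at a limit of 3 cells allow up to 3.7% and 2.97% of cells with 2 marker UMIs after thinning (4.45% and 3.59% by the exact binomial 95% interval). Of 23 glycolysis and hypoxia genes, 5 were higher (Adm, Ankrd37, Ndrg1, Pfkl and Pgk1) by edgeR and 11 by DESeq2. For runs 1 and 2 alone 2 of 22 of these were higher, beside the same 23 of 8076. For run 3 alone 12 of 23 were, beside the same 330 of 9810. Of 9 lymphatic genes Prox1 and Nts were higher by edgeR. Both lists stand beside 1.31% of all genes tested called higher by edgeR. Prox1 rested on 15 and 48 UMIs in lung metastasis replicates 5 and 6, with 0 UMIs in replicates 1-3 and 4. It passed in 8 of 21 other settings, and in runs 1 and 2 alone its log2 fold change was -3.86 (edgeR adjusted p 0.917). In those runs none of the 9 lymphatic genes had an unadjusted p under 0.05 and edgeR called none, while DESeq2, over all libraries, called 2 higher. None of the 12 general capillary, 15 aerocyte and 13 venous genes tested was called against unchallenged lung by edgeR with all libraries. For run 3 alone 1 general capillary and 1 venous gene were called higher, and no aerocyte gene was called. With all libraries, 1 general capillary gene was higher, 5 aerocyte genes lower and 1 venous gene higher at an unadjusted edgeR p under 0.05. DESeq2 called 2 aerocyte genes lower and 1 venous gene higher.

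The 5 genes with the largest fall from unchallenged lung were Gbp6, Cx3cl1, Dusp1, Mcc and Ccdc68. Cx3cl1, the chemokine fractalkine, read 43.3, 30.7, 18.9 and 18.2 CPM in lung metastasis and 70.4, 64.5, 100.3 and 77.9 CPM in unchallenged lung (log2 fold change -1.62 ± 0.31 (SE), edgeR adjusted p 0.0216). Dusp1, a phosphatase induced by stress, read 124, 129, 93.1 and 117 CPM against 257, 207, 234 and 539.8 CPM, and Gbp6, an interferon-induced GTPase, 31, 4.09, 12.6 and 18.2 CPM against 62, 42, 75 and 36.4 CPM. Mcc and Ccdc68 had log2 fold changes of -1.40 and -1.38.

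Levels of the remaining other-cell lists in the endothelial sums were as follows. Fibroblast genes summed to 31 to 1007 CPM in lung metastasis and 414 to 1792 CPM in primary tumor. Alveolar epithelial genes summed to 309.6 to 520.2 and 0 to 77.4 CPM, with 7 of 10 at 0 in primary tumor. Lymphocyte, neutrophil, mesothelial, and erythrocyte and platelet genes each summed to at most 227 CPM in any lung metastasis or primary tumor library. No member of these lists except Hopx, Scgb1a1, Ptgds, Kcnj8 and Abcc9 was called by edgeR against primary tumor with all libraries. Under the replicate block 3 of 4 tested fibroblast genes were lower, without primary tumor replicate 1-3 there was 1 of 4, and in run 3 alone there were 3 of 5. Over all genes tested these settings called 275 of 6840, 182 of 7241 and 118 of 7347 lower. Run 3 alone also called 3 of 4 airway epithelial, 3 of 3 alveolar epithelial and 2 of 8 melanoma genes higher, beside 186 of all 7347.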

How the data were processed

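Living tdTomato+ cells, in part CD45-depleted, were thawed from cryopreserved suspensions and sequenced with 10x 3′ v3.1 chemistry. The deposited counts are UMI counts per gene and cell, made by the authors with Cell Ranger 6.1.1 and Seurat 3.2.2 per the submitters' processing notes, on GRCm38 (mm10). The deposited normalized matrix was not used. Of 24 library names, 6 matched no label and were not used, and identical libraries were counted once. The study's methods remove cells at extreme quantiles of detected genes and of mitochondrial and ribosomal shares; the deposited matrix was made after it, since the lung metastasis and primary tumor library names hold 13850 and 9163 cells, repeated libraries included, the same as the study's counts after filtering. Those of unchallenged lung, 37386, differed slightly. Doublets were not treated.

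Counts were summed over the endothelial cells of each library with at least 20 such cells. They were tested with edgeR 4.0.16 (filterByExpr, TMM, quasi-likelihood F test, Benjamini-Hochberg adjustment) in R 4.3.3 and, as an alternative, DESeq2 1.42.0. Genes were called at an adjusted p under 0.05. The SE of an edgeR log2 fold change is its absolute value divided by the square root of the F statistic. The F test itself gives no SE. The scripts were tested on simulated data. P-values measure the spread between libraries. Shares of cells were compared with exact permutation tests over libraries after thinning each cell to 1000 UMIs; shallower cells were left out, 3 in lung metastasis replicate 1-3 and 0 or 1 in each other tumor library.

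The members and gene lists were chosen with earlier results of these data known. Genes were named by rule: the 10 called genes with the largest change in each direction (5 against unchallenged lung) with at least 50 CPM and no overlap, up to 4 called genes per list with the smallest adjusted p, and 25 genes fixed by name. Others named, such as further list members, Fendrr, Hoxb7 and Kcnj8, were chosen after their values were seen.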

Additional observations from a re-analysis of the deposited data

Results flagged for a closer look

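Among 158 sets of 4 libraries of 1 tissue, 7 held a library farther from the others than Dixon's 95% critical value allows, and chance alone gives about 1 in 20. Of the 7, 4 were primary tumor replicate 1-3, which had the highest level of its tissue, on the log2(CPM + 1) scale, for Glp1r (5.91), Krt80 (4.82), Tmem100 (8.78) and Zbtb16 (2.47). Esm1 was highest in primary tumor replicate 6 at 8.49 on the same scale, and Icam1 in primary tumor replicate 4 at 7.85. Fabp4 was lowest in unchallenged lung replicate 4 at 3.08.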

How the results depend on the processing

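Against primary tumor, 488 genes were called, and the count moved by more than 1.5 times with no filter on low counts (1073), with cells thinned to 1000 UMIs (149, fewer genes tested), in run 3 alone (304) and with melanoma genes under 0.1% of UMIs (872). In the last of these settings lung metastasis replicate 5 dropped out of the fit, and leaving out that library alone gave 1061. Leaving out 1 library at a time gave 252 to 1061. Against unchallenged lung, where 120 were called, the count was 208 by DESeq2, 219 with no filter, 43 thinned, 20 in a fit over 2 tissues, 23 in runs 1 and 2 alone, 487 in run 3 alone, 16 with the stricter melanoma limit, and 39 to 291 with 1 library left out. The settings on run, lymphatic cells and the stricter melanoma limit were chosen after seeing the data. Of 78 named genes called against primary tumor, 38 passed under every setting, and of 1747 values under other settings 1523 passed, 224 did not and 0 changed sign.

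Same-numbered libraries of lung metastasis and primary tumor correlated in their deviations at 0.202, -0.107, 0.181 and 0.183 for replicates 1-3, 4, 5 and 6, and 2 of 4 had their own number as best partner. With the replicate number as a block, 610 genes were called against primary tumor and 64 against unchallenged lung, whose mice differ from the tumor-bearing ones. Under the block the general capillary difference in share stayed at 41.9 percentage points and the venous one at -13.6, both with an exact permutation p of 0.125, the smallest that 4 pairs can give.

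Shares, in percentage points of lung metastasis minus primary tumor, ranged with 1 library left out from 35.1 to 50.5 for general capillary, 3.08 to 9.17 for aerocyte, -15.8 to -10.8 for venous, -2.98 to -1.01 for arterial, -11.6 to -7.56 for lymphatic, -6.17 to 0.0945 for tip and -3.28 to -1.78 for cycling markers; the tip value turned positive without primary tumor replicate 6. Without thinning the venous difference was -24.5 (exact permutation p 0.0571) and the aerocyte one -2.11. With 1 marker in place of 2 they were -15.1 (exact permutation p 0.257) and -5.64, and the lymphatic one was 20.5. With at least 4 endothelial markers the arterial one was 0.920. For these the cause was not tested.

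Genes whose log2 fold change against primary tumor changed sign were not called with all libraries. With 1 library left out, Angpt2 ranged from -1.58 to 0.029, Apln from -0.80 to 1.80, Esm1 from -1.15 to 0.10, Icam1 from -0.0024 to 0.95, Klf2 from -0.19 to 0.22 and Vcam1 from -0.32 to 1.34. In runs 1 and 2 alone Apln was -0.59, Vcam1 -1.27 and Vwf -0.024, in run 3 alone Klf2 was -0.038, and with the stricter melanoma limit Apln was -0.57 and Cx3cl1 0.063. Against unchallenged lung, Prox1 was -3.86 in runs 1 and 2. Sums of 161485 UMIs in lung metastasis replicate 1-3 limit what can be seen for low genes.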

Other observations

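Of the 284 genes higher in lung metastasis than in primary tumor, 279 had a lung metastasis mean nearer to unchallenged lung than to primary tumor on the log2 scale, and of the 204 lower genes 196 did. The genes were picked because lung metastasis differed from primary tumor, which by itself favors such counts. No share over all genes tested was computed. The comparisons also share the lung metastasis libraries, so the counts carry no test. The lung metastasis libraries were not alike in this. Over the genes called higher, the median difference from the primary tumor mean on the log2(CPM + 1) scale was 2.46, 2.65, 1.49 and 1.90 in replicates 1-3, 4, 5 and 6, and over the genes called lower it was -2.91, -2.69, -1.60 and -1.44. Of the 204 genes lower than in primary tumor, 16 were also called higher than in unchallenged lung and 0 lower. Of the 284 genes higher than in primary tumor, 5 were called higher and 1 lower than in unchallenged lung. Over all 8223 genes tested against unchallenged lung, 1.31% were called higher and 0.146% lower.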
